A study of Pan troglodytes with 38 samples.

Results

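The genes described here are 33 genes of fatty acid uptake and mitochondrial fatty acid oxidation, measured by RNA sequencing in the hearts of 38 chimpanzees (Pan troglodytes). They were chosen by symbol, as the genes of the chimpanzee gene count table whose Ensembl identifier carries the symbol of a transporter, an enzyme of the carnitine shuttle or of beta-oxidation, an electron carrier of the pathway or one of its regulators. All 33 symbols were found among the 31373 genes of the table, and all 33 passed the filter on low counts in every test below. The labels give all samples as primary heart tissue taken after death and name no treatment, no genetic change and no heart chamber. Each sample was 1 animal. The study reports that some of its chimpanzees came from laboratories and had been challenged with hepatitis B or C virus. Infection was not a term in any test here. The study asked how strongly gene expression varies between individual animals, and it lists the year of RNA extraction, the RNA integrity number (RIN), the sex and, for 34 animals, the age at death. RNA of 17 animals was extracted in an earlier year (10 females and 7 males) and RNA of 21 animals in a later year (12 females and 9 males). Some of the animals were relatives. Human hearts were not analysed here.

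Long-chain fatty acids are the main fuel of the adult heart. Lipoprotein lipase frees them from circulating particles, membrane proteins and fatty acid binding proteins carry them into the cardiomyocyte, and acyl-CoA synthetases activate them. The carnitine shuttle then moves the acyl chains into mitochondria, where repeated cycles of dehydrogenation, hydration, a second dehydrogenation and thiolysis shorten them, and electron transfer flavoprotein passes the electrons to the respiratory chain. PPARA, a nuclear receptor activated by fatty acids, turns on many of these genes, and PDK4, a kinase that shuts down pyruvate dehydrogenase, rises in fasting and favours fat over glucose.

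Counts on orthologous exons, used here as library size, ranged from 14408012 to 81603350 per animal, and counts over all genes from 43892814 to 132478050. Levels are given as CPM, counts relative to this total scaled with the trimmed mean of M values (TMM). Since no transcript lengths were used, a CPM can be compared between animals for 1 gene, and the order of different genes by CPM says nothing of molecules per cell. The 13 genes encoded by the mitochondrial genome took 17.2% to 60.1% of the gene counts of an animal. Transcripts of 10 cardiomyocyte markers (MYH6, MYH7, TNNT2, TNNI3, ACTN2, MYBPC3, RYR2, TTN, ACTC1 and CASQ2) were present in every animal, with a summed level of 11434 CPM in the lowest animal, 89964 CPM in the median animal and 145330 CPM in the highest.

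The animals Little_R, 537 and 549 stood apart and are named wherever they move a result. The study also names Little_R and 537 as outliers and places both in the same technical batch. Their totals on orthologous exons were low, 14408012 in Little_R, the lowest of all animals, and 18946174 in 537, against a median of 41226039.5. Over all genes, Little_R again had the lowest total, 43892814, but 537 had 62669620, near the median of 63639041.5. The parts of batch and depth in their levels were not tested. Little_R (RNA of the later year) had the lowest cardiomyocyte marker sum, 11434 CPM, and the highest fibroblast marker sum, 10016 CPM against a median of 1706 CPM. In 537 (RNA of the later year) the cardiomyocyte marker sum was 19138 CPM, and its mitochondrial share, 60.1%, was the highest. The heart of 549 (RNA of the earlier year) had the highest sum of atrial markers, 38544 CPM against a median of 470.3 CPM, and the lowest sum of ventricular markers, 336.7 CPM against a median of 21483 CPM. In bulk tissue such as this, fewer cells of a type and less RNA per cell cannot be told apart.

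Little_R had the lowest level of the 38 animals for 23 of the 33 fatty acid genes, and 537 for 3 more. The median difference of the 33 genes from their medians over all animals was -2.39 (log2) in Little_R and -1.94 in 537. Over all 10658 genes compared in the same way, the medians were -0.08 and -0.05, and Little_R was the lowest animal for 19.2% of those genes. At the other end, 476 had the highest median difference, 0.43, and 724 had the highest level for 7 of the genes.

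Genes of uptake differed in how far animals lay apart. LPL, which encodes lipoprotein lipase, was lowest in 549 with 72.3 CPM, had a median of 603 CPM and was highest in 4X0550 with 1982 CPM. CD36, the main fatty acid translocase of the heart, had a lowest level of 85.6 CPM, a median of 343 CPM and a highest level of 871 CPM. FABP3, the fatty acid binding protein of heart muscle, ranged from 152 CPM in Little_R through a median of 1275 CPM to 3517 CPM in 4X0339. The 2 fatty acid transport proteins of the set behaved differently, since SLC27A1 ranged from 40.1 to 142 CPM (median 66.9 CPM) while SLC27A6, the member most typical of heart, ranged from 2.46 to 166 CPM (median 54.0 CPM). ACSL1, which joins fatty acids to coenzyme A, had a range of 79.6 to 777 CPM and a median of 512 CPM.

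In the carnitine shuttle, both outer membrane transferases were present in every animal. CPT1B, the muscle form, had a lowest level of 111 CPM in Little_R, a median of 838 CPM and a highest level of 1619 CPM in 456. CPT1A, the liver form, had a lowest level of 24.4 CPM in 529, a median of 61.3 CPM and a highest level of 135 CPM in 724. CPT2, the inner membrane partner that hands the acyl chain back to coenzyme A, ranged from 10.2 to 114 CPM with a median of 58.1 CPM. The extremes of CPT1B and CPT2 at the low end were both Little_R, and that of CPT1A was another animal.

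Among the acyl-CoA dehydrogenases, each specific to a chain length, ACADVL (very long chains) ranged from 374 to 2898 CPM with a median of 1413 CPM, and ACADS (short chains) from 55.01 to 494 CPM with a median of 243 CPM. ACADM, the medium-chain enzyme, had 8.89 CPM in Little_R, a median of 185 CPM and 290 CPM in its highest animal, 623. ACADL, the long-chain enzyme, was barely detected, with a lowest level of 0.302 CPM, a median of 1.02 CPM and a highest level of 6.56 CPM, and never with more than 190 counts or fewer than 15 in an animal. Its ratios between animals therefore rest on few reads.

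The 5 genes with the most CPM, in order of the median, were HADHB, ACADVL, FABP3, HADHA and CPT1B, and HADHA and HADHB are among the enzymes that complete the cycle. They encode the subunits of the trifunctional protein, which carries out the last steps for long chains. HADHA ranged from 142 CPM in Little_R through a median of 927 CPM to 2255 CPM in 724, and HADHB from 179 through 1993 to 4422 CPM in the same lowest and highest animals. The median levels of the remaining members were 619 CPM for HADH (short-chain 3-hydroxyacyl-CoA dehydrogenase), 385 CPM for ECHS1 (enoyl-CoA hydratase), 338 CPM for ACAA2 (mitochondrial thiolase) and 146 CPM for ACAA1 (peroxisomal thiolase). Little_R was the lowest animal for HADH, ECHS1 and ACAA2, and 4x0025 was the lowest for ACAA1.

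For the auxiliary enzymes that handle double bonds, the medians were 409 CPM for DECR1 (dienoyl-CoA reductase), 231 CPM for ECI2 and 85.7 CPM for ECI1 (both enoyl-CoA isomerases), and Little_R was lowest for each. The subunits of electron transfer flavoprotein had medians of 370 CPM (ETFA) and 219 CPM (ETFB), and ETFDH, the dehydrogenase that passes their electrons to ubiquinone, 124 CPM. The thioesterases ACOT2 and ACOT13, which release free fatty acids from coenzyme A, had medians of 309 and 79.8 CPM. ACOT2 has a near-identical paralog, ACOT1, that carried no symbol in this table, so reads of the pair may have been assigned to either.

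The regulators held both the widest and the thinnest measurements. PDK4 had 3.82 CPM in 4X0339, a median of 338.9 CPM and 1961 CPM in 724, a 513-fold range, with the middle of the animals between quartiles of 95.5 and 833 CPM. It was under 100 CPM in 10 animals (3 with RNA of the earlier year and 7 with RNA of the later year) and over 1000 CPM in 7 (5 females and 2 males). The corresponding ratio of highest to lowest animal was 10.6-fold for the median member and 3.55-fold for the narrowest. PDK2, a more widely expressed kinase of the same family, ranged from 29.1 to 282 CPM. MLYCD, which breaks down malonyl-CoA and so relieves the block on CPT1, ranged from 16.3 to 242 CPM, and PPARA from 1.99 to 20.6 CPM. The mitochondrial carriers UCP2 (0.531 to 26.6 CPM) and UCP3 (0.634 to 18.2 CPM) had the lowest levels together with ACADL, with medians of 9.32 and 2.78 CPM and a minimum of 8 counts for UCP2. They lie next to each other in the genome, and the libraries did not keep the strand.

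**Figure D1:**
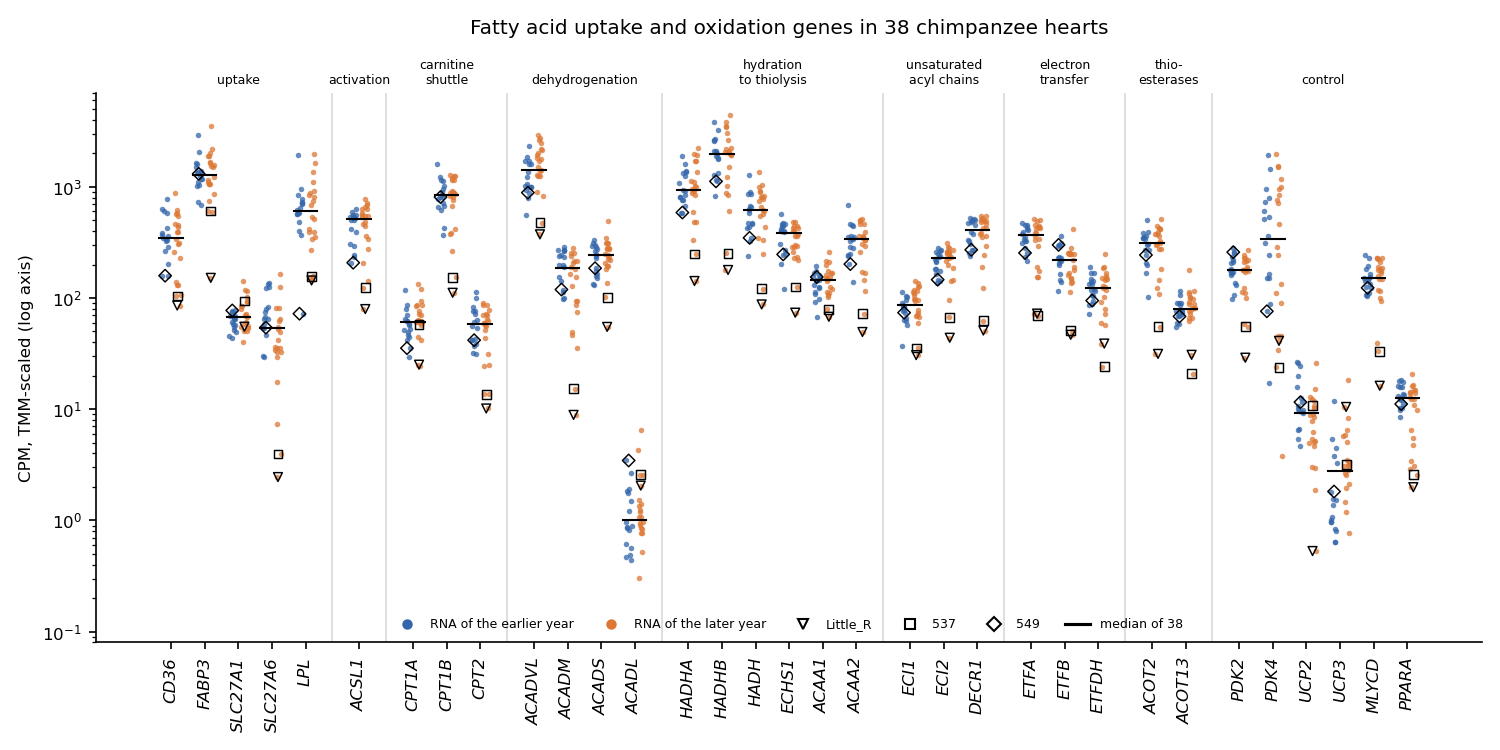
TMM-scaled CPM (log axis) of each of the 33 genes in each of the 38 hearts, grouped by role, with RNA of the earlier year in blue and RNA of the later year in orange. Each point is 1 animal, black bars are medians of 38 animals, and the animals Little_R, 537 and 549 have their own symbols. PDK4 spans 3.82 to 1961 CPM, and Little_R is the lowest point for 23 genes.

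Variability between animals was then measured for each gene as negative binomial overdispersion relative to the trend of overdispersion on mean level. The study used the same measure on orthologous exon counts, whereas here the gene counts were fitted with the orthologous exon totals as library size. The residual, on the natural log scale, is called dispersion, and 0 marks a gene as variable as others of its level. Of the 33 fatty acid genes 28 lay above the trend, against 44.97% of the 13110 genes fitted, and their median dispersion was 0.54 against -0.11 for all genes. Without 537 and Little_R 24 lay above it (44.2% of all genes), and without the 5 animals of highest mitochondrial share 22 did (44.7%). PDK4 had a dispersion of 2.55 ± 0.90 (SE over redrawn sets of animals, n = 38), which placed it 94th of the 13110 genes. SLC27A6 followed with 1.58 ± 0.28 and ACADM with 1.32 ± 0.33. The 3 lowest were ACAA1 (-0.50 ± 0.29), ACADL (-0.45 ± 0.33) and ACOT13 (-0.17 ± 0.44). CPT1A had 0.54 ± 0.22.

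These estimates depended on single animals to different degrees. PDK4 stayed between 2.43 and 2.58 when any 1 animal was left out. For 24 of the 33 genes the lowest value came from leaving out Little_R, which took ACADM to 1.03, SLC27A6 to 1.36 and FABP3 from 0.46 to 0.03. ECHS1 and ACADS then fell below the trend, and SLC27A1 did so without 558. Little_R was also the animal with the lowest cardiomyocyte marker sum, and the part of that in the dispersion was not tested beyond leaving the animal out.

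**Figure D2:**
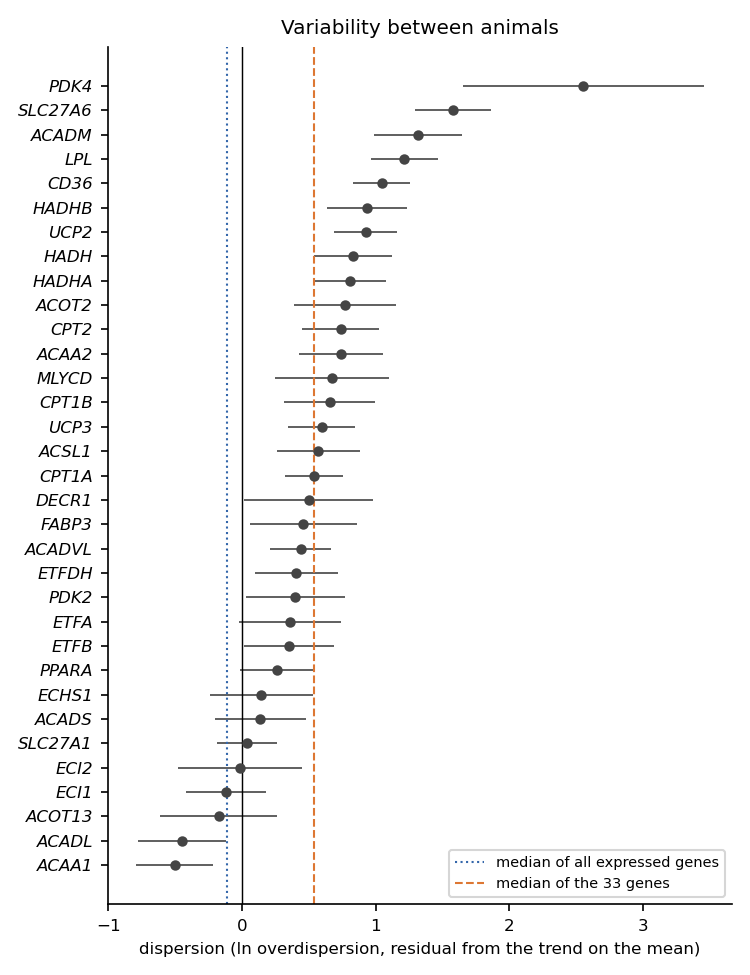
Dispersion (residual of ln overdispersion from the trend on the mean) of the 33 genes, highest at the top. Points are estimates over 38 animals, bars are the SE over redrawn sets of animals, the dotted line is the median of all genes fitted (-0.11) and the dashed line the median of the 33 genes (0.54).

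Most of the fatty acid genes rose and fell together from animal to animal. Of the 528 pairs among the 33 genes, 449 had a positive Pearson correlation of log2(CPM + 0.5), with a median r of 0.650, given here as a description over 38 animals that share library preparation and scaling. Pairs of genes outside the set were not examined, so these values cannot show whether the set differs from other genes. Within the RNA of the earlier year the median r was 0.382, within that of the later year it was 0.736, and without 537 and Little_R it was 0.423. With the cardiomyocyte marker sum regressed out of every gene, 399 pairs were positive and the median r was 0.250. CPT2 was the member closest to the rest, with a median r of 0.813 with the other genes, and 27 members had a median r over 0.5. ACADL (-0.31), UCP3 (-0.08) and SLC27A1 (-0.07) had a negative median r. UCP2 (0.07), CPT1A (0.25) and PDK4 (0.38) were the lowest of those above 0.

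**Figure D3:**
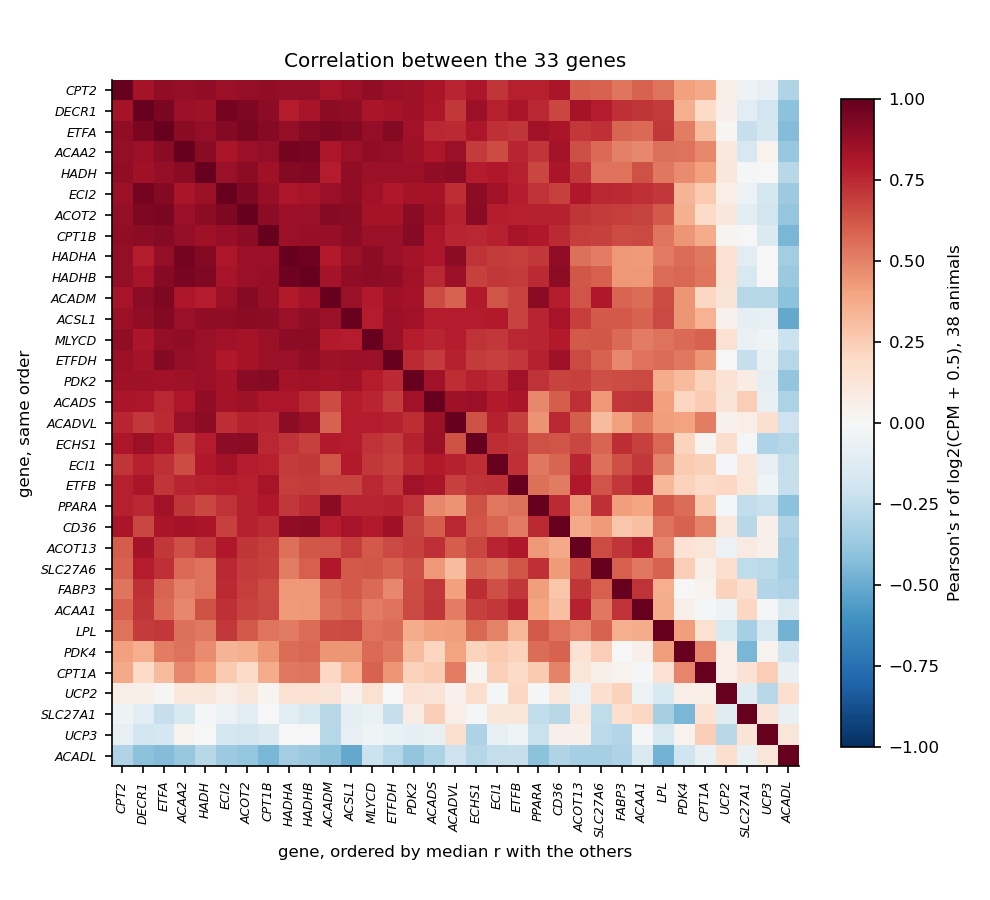
Pearson's r of log2(CPM + 0.5) over 38 animals for every pair of the 33 genes, ordered by each gene's median r with the others, on a scale from -1 (blue) to 1 (red). The block of red holds most of the set, and UCP2, SLC27A1, UCP3 and ACADL at the lower right are pale or blue.

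For 20 pairs of genes with a known connection, relations were tested by permutation (2-sided, 100000 resamples, Benjamini-Hochberg over the 20). With 10 pairs, both Pearson's r and Spearman's rho passed. HADHA and HADHB, the subunits of 1 complex, had r = 0.972 and rho = 0.943 (both adjusted p = 5e-05 by permutation), with r = 0.909 in RNA of the earlier year, 0.984 in RNA of the later year and 0.957 without the 2 animals farthest from the median of HADHA. CPT1B and CPT2, consecutive steps of the shuttle, had r = 0.885 and rho = 0.751, with r = 0.709 and 0.926 within the years and 0.805 without the 2 farthest animals. For the isomerases ECI1 and ECI2, r was 0.837 and rho 0.815, with 0.849 and 0.876 within the years and 0.721 without 2 animals. MLYCD and ACACB, which break down and make malonyl-CoA, had r = 0.728 and rho = 0.807, with 0.824 and 0.843 within the years and 0.677 without 2 animals. All 4 pairs had an unadjusted p of 1e-05, the smallest that the permutations can give, and all 4 passed within both years. In the normalized matrix of the authors 3 of the 20 pairs passed, so not all 4 did there.

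The other 6 pairs were weaker. ETFA and ETFB had r = 0.715 and rho = 0.411 (adjusted p = 8e-05 and 0.0217 by permutation), but r fell to 0.376 and rho no longer passed without the 2 farthest animals, 537 and Little_R. FABP3 and the myoglobin gene MB had r = 0.689 and rho = 0.570, with r = 0.482 and 0.733 within the years and 0.523 without 2 animals, and CD36 and LPL had r = 0.545 and rho = 0.452, with 0.534, 0.555 and 0.418. With the cardiomyocyte marker sum regressed out of every gene, r was 0.11 for ETFA and ETFB, 0.10 for FABP3 and MB and 0.23 for CD36 and LPL, none of which passed, whereas HADHA and HADHB had 0.943. CD36 and LPL passed on both measures in neither year alone and not without the 2 farthest animals, as was the case for ETFA and ETFB. A further 3 of the 20 pairs passed on r but not on rho.

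PDK4 passed with 3 of the 6 genes it was paired with, most of which share its regulators. Its r was 0.557 with PPARA (rho = 0.469, adjusted p = 0.000725 and 0.00848 by permutation), 0.508 with ANGPTL4, another PPAR target that inhibits lipoprotein lipase (rho = 0.532, adjusted p = 0.00222 and 0.00233), and 0.486 with CPT1A (rho = 0.491, adjusted p = 0.00376 and 0.00551). Within RNA of the earlier year these r values were 0.222, 0.644 and 0.386, within RNA of the later year they were 0.648, 0.526 and 0.575, and without the 2 animals farthest from the median of PDK4 they were 0.581, 0.419 and 0.509. In RNA of the earlier year alone none of the 3 passed on both r and rho. The same held in the normalized matrix of the authors (37 animals), where r was 0.171 with PPARA, 0.419 with ANGPTL4 and 0.080 with CPT1A, with adjusted p of 0.477, 0.0347 and 0.706 by permutation and, for rho with ANGPTL4, of 0.0998. PDK4 and UCP3, both raised by fasting in muscle, had r = 0.03, and PDK4 and PDK2 had r = 0.314, neither past the threshold. Pairs of related proteins that did not pass included UCP3 with UCP2 (r = -0.28), SLC27A6 with SLC27A1 (r = -0.25) and CD36 with FABP3 (r = 0.28).

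Across the whole table, the 5 genes whose levels were ordered most like PDK4 (of 10384 genes with a symbol and a mean of at least 6 CPM) were DERL1 (rho = 0.808), ARIH2 (0.802), GABARAPL1 (0.801), ATP1B1 (0.793) and CMYA5 (0.793), over 38 animals. Their rho within RNA of the earlier year was between 0.669 and 0.934, and within RNA of the later year between 0.762 and 0.852. GABARAPL1, a gene of autophagy, had the highest rho with PDK4 within the earlier year, and DERL1, a gene of protein export from the endoplasmic reticulum, the highest within the later year.

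Levels of the fatty acid genes were next set against markers of cell types in the same animals (165 relations of 33 genes and 5 measures, tested by permutation and adjusted over the 165). These relations were not computed for genes outside the set. The counts below therefore cannot show whether the set differs from other genes. With the summed cardiomyocyte markers, 28 genes passed on both r and rho, 27 of them positively, with a median r of 0.7501 over the 33 genes (0.451 in RNA of the earlier year, 0.824 in RNA of the later year, 0.537 without 537 and Little_R, which are the 2 animals farthest from the median). DECR1 (r = 0.934), ECI2 (0.924) and ACADM (0.888) were closest to the markers, and ACADL went the other way (r = -0.37). PDK4 (0.30), CPT1A (0.16), UCP2 (0.08), SLC27A1 (-0.03) and UCP3 (-0.20) did not pass. These 5, with ACADL, are also the members with the lowest median r with the other fatty acid genes.

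With the fibroblast marker sum, 24 genes passed and all had a negative r (median r over the set -0.66), with MLYCD at r = -0.80. Within RNA of the earlier year alone, 2 genes passed with the cardiomyocyte sum and 0 of 33 with the fibroblast sum, by the same permutation test. With the sum of 8 endothelial markers 10 genes passed, all negatively, but 6 without 549 and 0 of 33 without 537 and Little_R by the same permutation test. For the adipocyte markers 25 passed, a count that fell to 9 when PLIN4, a droplet protein also expressed in cardiomyocytes, was left out of the sum. Adipocyte transcripts proper were near 0 in most hearts. ADIPOQ had a median of 0.111 CPM, and PLIN1 had a median of 0.610 CPM with 176 CPM in 4X0267. LPL, which fat cells express at a high level, had r = -0.07 with PLIN1.

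The first comparison asked whether these genes differed between the years of RNA extraction. Animals were grouped by year alone, so the parts of year, age of the library and batch cannot be told apart here. The centre that supplied the animals was partly tied to year too. All animals from New Iberia and MD Anderson were in the earlier year, and the Little Rock animal was in the later. No fatty acid gene passed (edgeR quasi-likelihood test with sex as covariate, adjusted p under 0.05), while 16.5% of the 16000 genes tested did. At an unadjusted p under 0.05 there were 3 of the 33, against 30.9% of all genes. In the 21 Yerkes animals alone, 0 of the 33 and 1.64% of 16280 genes passed by edgeR, though with fewer animals. DESeq2 called 1 of the 33, UCP3 (adjusted p = 0.0292), and 19.8% of all genes. UCP3 had levels of 0.634, 1.37 and 11.9 CPM (lowest, median, highest) in RNA of the earlier year and 0.769, 3.17 and 18.2 CPM in RNA of the later year. The log2 difference was 1.02 ± 0.40 (SE, edgeR adjusted p = 0.0716), and the years overlapped. SLC27A1 had 43.99, 64.1 and 77.3 CPM in RNA of the earlier year and 40.1, 69.7 and 142 CPM in RNA of the later year, a log2 difference of 0.32 ± 0.13 (edgeR adjusted p = 0.0857). UCP2 had 4.63, 10.01 and 26.6 CPM against 0.531, 7.88 and 26.3 CPM, a log2 difference of -0.65 ± 0.30 (edgeR adjusted p = 0.136). The ranges of the years overlapped for all 33 genes.

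PDK4 was 17.3, 365 and 1928 CPM (lowest, median, highest) in RNA of the earlier year and 3.82, 289 and 1961 CPM in RNA of the later year. The years overlapped over nearly their whole range, and the log2 difference of 0.26 ± 0.55 had a 95% interval that included 0. CPT1A had 29.2, 57.5 and 118 CPM against 24.4, 62.6 and 135 CPM, a log2 difference of 0.24 ± 0.16. ACADVL had 561, 1059 and 2331 CPM against 374, 1689 and 2898 CPM, a log2 difference of 0.40 ± 0.20 (edgeR adjusted p = 0.166). ACADVL was higher in RNA of the later year past the threshold once 537 and Little_R were left out (log2 difference 0.50, edgeR adjusted p = 0.0309, with 13.4% of all genes called), and also with the cardiomyocyte marker sum as a covariate (0.49, edgeR adjusted p = 0.0370, with 15.4% of all genes called), where ACAA1 and ECI1 were higher too. The median log2 difference of the 33 genes was -0.00, beside 0.02 over all genes. Among all genes tested 2646 were called, of which 1959 were higher in RNA of the later year, but with all gene counts as library size and no TMM factor 878 of 2387 were. That scaling moved the median of all genes to -0.20 and that of the 33 genes to -0.13, and 0 of the 33 passed by edgeR (1 at an unadjusted p under 0.05).

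Of other genes of lipid use, 12 of 100 tested passed with the year, against 16.5% of all genes. They came from lists of carnitine carriers, peroxisomal oxidation, lipid droplets, regulators and related enzymes, and 6 were higher and 6 lower in RNA of the later year. PLIN5, which ties droplets to mitochondria, rose by a log2 difference of 1.05 ± 0.31 (edgeR adjusted p = 0.0167), SLC27A3 by 1.09 ± 0.27 (0.00361), FABP4, a binding protein of fat and endothelial cells, by 0.83 ± 0.25 (0.0178) and PPARG, the regulator of fat cell genes, by 0.62 ± 0.14 (0.00131). DGAT1 (0.32) and ECHDC2 (0.52) were also higher. Lower in RNA of the later year were SLC22A4 (-0.96), ABCD2 (-0.92), ACSL4 (-0.61), SCP2 (-0.49), PDK3 (-0.49) and PRKAA1 (-0.35). Markers of other cells moved with the year too. Of the adipocyte markers 2 of 5 tested were higher (PLIN1 by a log2 difference of 2.89 and CIDEC by 2.67), 3 of 4 macrophage markers were lower (CD163 by a log2 difference of -1.56) and 3 of 4 atrial markers were lower (SLN by -3.36). Of the 10 cardiomyocyte, 8 endothelial and 6 fibroblast markers, 0 passed by the same edgeR test. The part of these cells in the differences was not tested for the lipid genes named.

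Males and females were compared with year as a covariate. Of the 33 fatty acid genes 0 passed by edgeR and 0 by DESeq2, while 0.231% of the 16000 genes passed by edgeR and 0.637% by DESeq2. At an unadjusted p under 0.05 there were 5 members, against 8.51% of all genes. CPT1A had 25.1, 66.9 and 135 CPM (lowest, median, highest) in the 22 females and 24.4, 54.9 and 84.3 CPM in the 16 males, a log2 difference of -0.50 ± 0.16 (males against females, edgeR unadjusted p = 0.00286, adjusted p = 0.243). HADHB had 179, 2113 and 4422 CPM in females and 253, 1555 and 2618 CPM in males (log2 difference -0.65 ± 0.27, edgeR adjusted p = 0.459), and HADHA had 142, 1096 and 2255 CPM against 249, 860 and 1381 CPM (-0.57 ± 0.24, adjusted p = 0.470). The sexes overlapped for each of these genes, and the top of the range was female. For ACADVL the log2 difference was -0.41 ± 0.20, and for the sparsely counted ACADL it was 0.84 ± 0.29. PDK4 had 17.3, 724 and 1961 CPM in females and 3.82, 205 and 1506 CPM in males, a log2 difference of -1.14 ± 0.57 (edgeR unadjusted p = 0.0539, adjusted p = 0.597). Of the 33 log2 differences 25 were negative, with a median of -0.15 beside 0.00 over all genes. Mitochondrial shares above 34.98%, the highest of the earlier year, occurred in more males than females. The males were 389, 495, 4X0339, 4X0354, 529 and 537, and the females were 4X0357, 558 and Little_R. That share was not a covariate here, and its part in the sex differences was not tested. Outside the set, ABCD2, a peroxisomal fatty acid importer, was higher in males by a log2 difference of 1.61 ± 0.31 (edgeR adjusted p = 0.00446) and was the 1 gene of the 100 other lipid genes that passed.

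**Figure D4:**
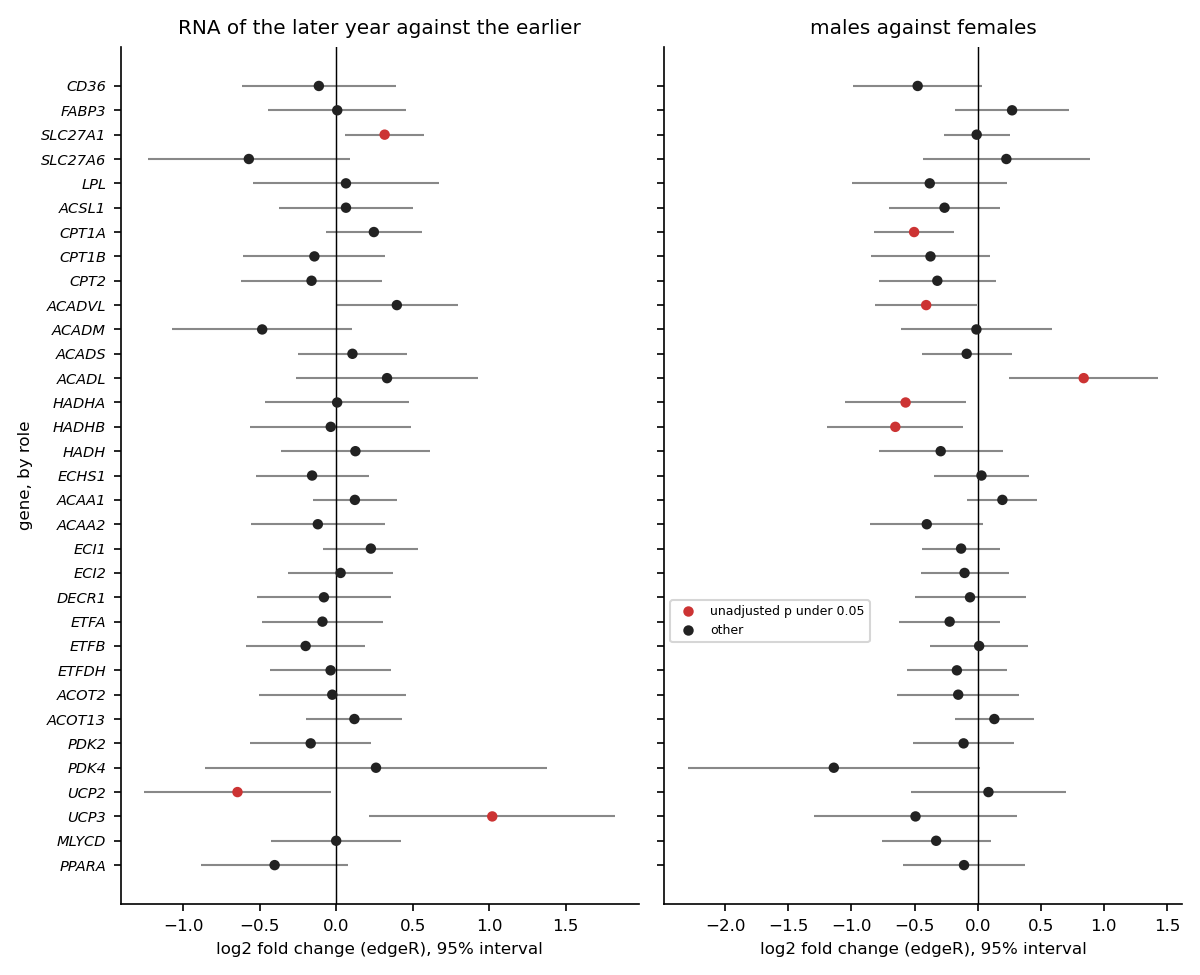
Log2 fold change of the 33 genes between RNA of the later and the earlier year (left) and between males and females (right), from edgeR fits over 38 animals. Points are estimates, bars are 95% intervals, and red marks an unadjusted p under 0.05, which 3 genes had in the left panel and 5 in the right.

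RNA integrity and age were tested as slopes. For RIN (year and sex as covariates), 0 of the 33 genes and 0 of 16761 genes (0%) passed by edgeR, and 0 of the 33 by DESeq2, which called 171 genes (1.02%). At an unadjusted p under 0.05 edgeR had 6 of the 33 genes and 13.8% of all genes. All 6 were lower with higher RIN, ETFB by -0.17 ± 0.06 per RIN unit (log2, edgeR unadjusted p = 0.00504, adjusted p = 0.178) and the other five, FABP3, ACADS, ACOT13, ECI1 and ACAA1, by -0.15 to -0.11. Without the 5 animals of highest mitochondrial share, 7 members had an unadjusted p under 0.05 and all 7 were higher with higher RIN, where 22% of all genes had such a p, with 0 of the 33 past the adjusted threshold by edgeR. For age at death (34 animals, year and sex as covariates), 0 of the 33 and 0 of 16492 genes passed by edgeR, with 0 of the 33 and 7.41% of all genes at an unadjusted p under 0.05. DESeq2 called 5 genes (0.0303%) and 0 of the 33. The RIN slope differed between the years for 0 of the 33 and 0 of 17256 genes by the edgeR interaction test, with UCP3 the 1 member (6.47% of all genes) at an unadjusted p under 0.05. The age slopes per 10 years were positive for 28 of the 33, with a median of 0.06 (log2) beside -0.01 over all genes. These slopes, like the sex differences above, are not separate observations, since most of the 33 genes rose and fell together. PDK4 had a slope of 0.06 ± 0.24 and CPT1A of -0.05 ± 0.05.

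The share of counts on mitochondrially encoded genes differed between the years, 17.2% to 34.98% in RNA of the earlier year and 21.5% to 60.1% in RNA of the later year, with 9 animals of the later year above the range of the earlier. Over all 38 animals, PPARA (r = -0.79) and SLC27A6 (r = -0.62) were the 2 genes that passed with this share on both r and rho by permutation, and without the 2 animals farthest in share their r was -0.71 and -0.48. The median r of the 33 genes was 0.511 within RNA of the earlier year and -0.69 within that of the later year. After this was seen, the slope of each gene on that share (log2 per 10 percentage points, sex as covariate) was compared between the years. The slope was lower in RNA of the later year for 23 of the 33 fatty acid genes by the edgeR interaction test, against 9.89% of the 17256 genes tested (23.6% in either direction). Within RNA of the later year, 24 of the 33 fell as the share rose, against 20.8% of 16855 genes that fell (44.5% in either direction). The slopes of the 24 ran from -0.26 (ACAA1) to -1.72 (PDK4). Within RNA of the earlier year, 0 of the 33 passed by edgeR (0.399% of 16289 genes did), and the 20 members with an unadjusted p under 0.05 (18.9% of all genes) all rose with the share.

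The values of single genes show at which shares the levels were low. ACADM had 98.6, 197 and 290 CPM (lowest, median, highest) in RNA of the earlier year, 87.1, 201 and 283 CPM in the 12 animals of the later year within the range of shares of the earlier, and 8.89, 49.5 and 208 CPM in the 9 animals above it. For ETFA the medians of the same groups were 356.9, 429 and 174 CPM, for CPT1B 809, 901 and 381 CPM, and for PDK4 365, 902 and 45.3 CPM. SLC27A1 did not share this order, with medians of 64.1, 68.8 and 84.8 CPM. FABP3 had a slope in the later year of -0.12 ± 0.18, past no threshold. In the 29 animals with shares up to 34.98%, 0 of the 33 interactions and 1 of 16837 genes (0.00594%) passed by edgeR. The slopes of the later year themselves had the other direction there. In its 12 animals within that range 0 of the 33 passed by edgeR, 25 slopes were positive with a median of 0.25, against -0.59 in all its animals, and the 4 members with an unadjusted p under 0.05 (9.78% of all genes) all rose.

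Cell markers moved along with the mitochondrial share in RNA of the later year. Of the 10 cardiomyocyte markers 5 fell with the share, against 20.8% of all genes. Of the 6 fibroblast markers 5 rose, as did 5 of the 8 endothelial markers, against 23.7% of all genes. RYR2, the calcium release channel of cardiomyocytes, fell by a log2 slope of -1.19 ± 0.17 and TTN by -0.92 ± 0.15, while COL1A1 rose by 0.70 ± 0.17 (edgeR adjusted p = 4.66e-05, 0.000136 and 0.00198). Of 10 genes of pyruvate dehydrogenase and its control, 10 fell, and of 13 peroxisomal genes 10 fell, against the same 20.8% of all genes. The animals with the highest shares include 537 and Little_R, without which 19 of the 33 interactions passed (7.47% of all genes, counting those with a lower slope in the later year). Without the 5 animals of highest share, 10 of the 33 passed and 8.05% of all genes in either direction. The parts of cell makeup and RNA quality in these slopes were not tested.

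**Figure D5:**
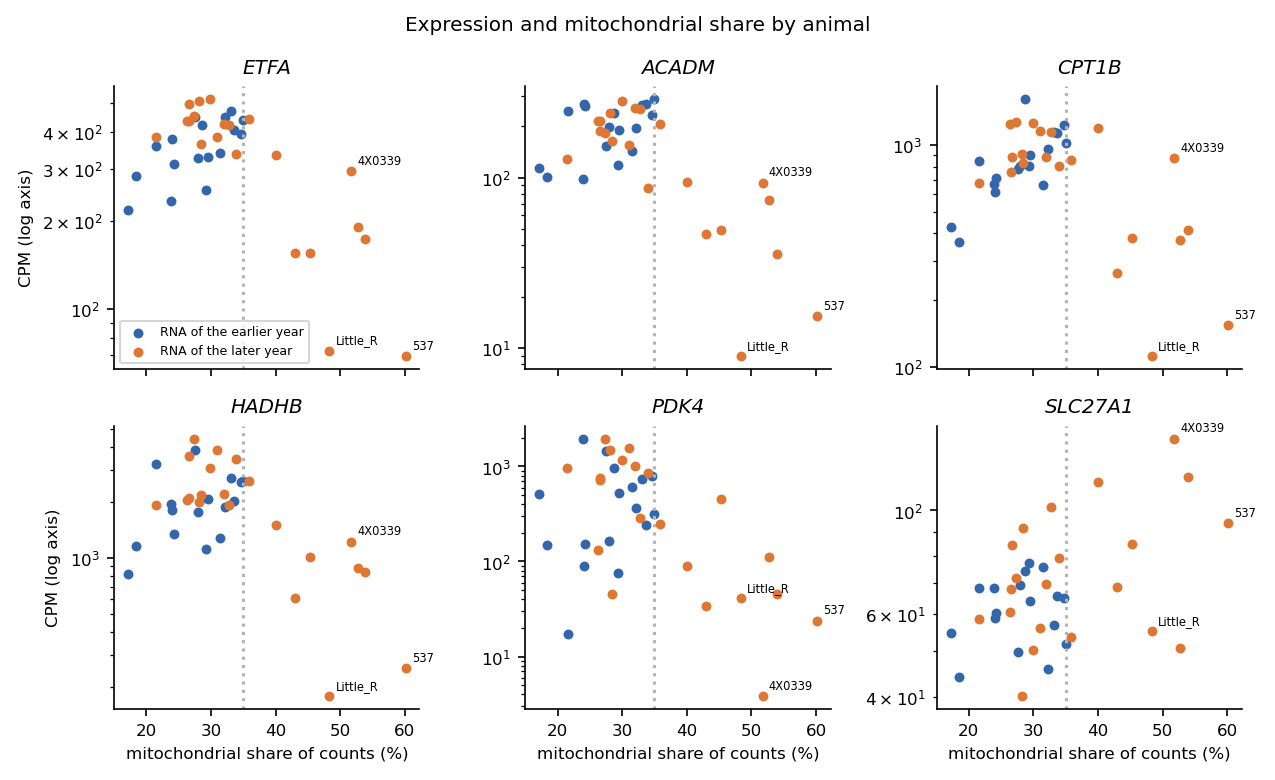
TMM-scaled CPM (log axis) of 6 of the genes against the share of gene counts on mitochondrially encoded genes (percent), 1 point per animal, with RNA of the earlier year in blue and RNA of the later year in orange. The dotted line marks the highest share of the earlier year, 34.98%, and the animals right of it are all of the later year. ETFA, ACADM, CPT1B, HADHB and PDK4 have their lowest points there and SLC27A1 does not.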

How the data were processed

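Heart RNA of 38 chimpanzees was sequenced from poly(A)-selected, unstranded libraries, and the labels give 1 group of primary tissue with 1 library per animal. The deposited gene counts are raw reads per annotated gene, which the authors aligned and counted with STAR (version 2.6.1b in the submitters' processing notes). A second deposited table holds counts that the authors made with featureCounts 1.6.3 (file header) on exons that chimpanzee genes share with their human orthologs, used here for library totals only. The authors also deposited a normalized matrix of 13545 genes in 37 animals, whose values are scores: log CPM standardized per gene and mapped to normal quantiles. It served only as an alternative. A further 52 columns of per-sample values match no sample here and were not used. Year, sex, RIN and age come from the study's sample table.

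Gene symbols came from a table pairing Ensembl identifiers with names. Gene counts were tested with edgeR 4.0.16 (quasi-likelihood, TMM, totals on orthologous exons as library size, filterByExpr, Benjamini-Hochberg over all genes tested, threshold 0.05), with DESeq2 1.42.0 as alternative. Overdispersion was fitted with MASS 7.3.60.0.1 and a LOESS trend (span 0.75) in R 4.3.3, for genes whose highest animal reached 6 CPM, and its SE came from 1000 redrawn sets of animals. Correlations used log2(CPM + 0.5) and 100000 permutations (scipy 1.17.1). Simulated data were used to try the edgeR fits of year and of the mitochondrial share interaction, the overdispersion fit of single genes and the permutation test. No pair of animals had near-identical counts (closest r = 0.977), and intervals cover the spread between animals.

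All 33 genes are accounted for. Values in full are given for genes past a test, the 3 highest and 3 lowest in dispersion, the 5 highest and 3 lowest by CPM, pairs past the threshold, PDK4 and CPT1A. Genes at an unadjusted p under 0.05 and the comparison over mitochondrial share were added after the values were seen. Members and lists were chosen with earlier results of these data known. Alternatives were another scaling, DESeq2, no filter, another covariate, another LOESS span, 1 year or centre alone, and leaving out animals.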

Additional observations from a re-analysis of the deposited data

Results flagged for a closer look

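Under the same relation, the slope of a gene's level on the mitochondrial share of counts, the RNA of the earlier and of the later extraction year differed by an edgeR interaction test for 23 of the 33 fatty acid genes, all with the lower slope in the later year, against 9.89% of all genes with a lower slope and 23.6% in either direction. The slope of the later year minus that of the earlier, in log2 per 10 percentage points, was -1.04 for ETFA (adjusted p = 0.00135), -1.50 for ACADM (0.0021), -1.04 for PPARA (0.00221), -1.03 for ETFDH (0.00237), -1.28 for CPT1B (0.00401) and -1.20 for ACOT2 (0.00494). These are the 6 members with the smallest p. The comparison was added after the data were seen. CPT1A, SLC27A1, UCP3, UCP2, ACADL, FABP3, PDK4, SLC27A6, ACOT13 and ACADS did not pass. Shares above 34.98% occur in the later year alone, so the difference of the slopes and the presence of such animals cannot be told apart. In the 29 animals up to that share 0 of the 33 passed by edgeR. In the later year, 5 of 6 fibroblast and 5 of 8 endothelial markers rose and 5 of 10 cardiomyocyte markers fell with the share, and their part was not tested.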

How the results depend on the processing

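Over all alternatives, 425 of 502 recomputed values kept their direction and their side of the threshold or, for counts and dispersions, stayed near the reported value. The 425 include single-gene effects that passed no threshold in the main fit or in the alternative. These were 56 for the year, 63 for RIN, 42 for sex and 12 for age. For the extraction year, the number of the 33 genes called was 0, and 1 with DESeq2 (UCP3), 1 without 537 and Little_R, 1 without the 5 animals of highest mitochondrial share (ACADVL both times) and 3 with the cardiomyocyte marker sum as covariate. Of all genes 16.5% (2646) were called, against 1.64% with animals of the Yerkes centre alone and 9.02% (1436) without those 5 animals. For RIN, genes called numbered 0, and 13 (0.0798%) in the earlier year alone, 2 (0.0119%) with no TMM factor, 171 (1.02%) with DESeq2, 2 (0.00742%) with no filter and 361 (2.18%) without the 5 animals, with 0 of the 33 among them in each. The RIN slope of CPT1A was -0.0103 in the later year alone, of the opposite sign to the slope over both years, and neither passed. For sex there were 37 (0.231%), and 102 (0.637%) with DESeq2 and 23 (0.143%) without 549. For age there were 0, and 5 (0.0303%) with DESeq2 and 6 (0.0225%) with no filter. The interaction of mitochondrial share and year was called for 23 of the 33 and 23.6% of all genes, for 10 and 8.05% (1379) without the 5 animals, and for 0 and 0.00594% (1 gene) in animals up to the highest share of the earlier year. Of the fixed pairs 10 passed, 3 in the normalized matrix of the authors and 4 in the earlier year alone. With the endothelial sum 10 genes passed, 0 without 537 and Little_R, 6 without 549, 0 in the earlier year and 18 in the later. With the mitochondrial share 2 passed, 1 without 537 and Little_R, 5 with no TMM factor and 18 in the later year alone, all negatively, and 2 in the earlier year alone, both positively. In the earlier year alone, 2 passed with the cardiomyocyte, 0 with the adipocyte and 0 with the fibroblast sum, and 9 passed with the adipocyte sum without PLIN4. The causes were not tested, though 1 year alone and fewer animals also mean fewer samples. Alternatives naming 549, the cardiomyocyte covariate, PLIN4 or the interaction with mitochondrial share were chosen after seeing the data. So were the relations to marker sums and mitochondrial share without 537 and Little_R and with no TMM factor. The year test on orthologous exon counts was not run. Few reads limit ACADL, UCP2 and UCP3. No paired analysis was possible because the labels give 1 group and no replicate numbers.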
